A study of Mus musculus with 49 samples.

Results

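*Stat5b* knock-in (KI) CD8 T cells were compared with *Stat5a* KI CD8 T cells after 24 hr of IL-2, 3 libraries against 3, which are 6 of the 48 RNA-seq libraries, and the members were taken by their treatment group labels (STAT5B.24h.KI and STAT5A.24h.KI). *Stat5a* KI mice carry Y694F and *Stat5b* KI mice carry Y699F, a tyrosine changed to phenylalanine that cannot be phosphorylated. The 3 libraries each of the groups STAT5A.24h.WT and STAT5B.24h.WT came from mice without the change in the corresponding line and gave the difference between the lines themselves. All 4 groups were C57BL/6J mice by the labels. Both lines were edited in zygotes of B6D2F1 hybrids and then backcrossed to C57BL/6J for 6 generations, and other strain sequence that remains near the edited genes was not tested. Mouse ages of 8 to 24 weeks are given for the study as a whole, and all cells were splenic CD8+ T cells isolated by a kit and cultured for 24 hr in recombinant human IL-2 at 500 IU/ml. The KI alleles are in the germline, so every cell type of the KI mice carried them from birth, and the sources used here do not say whether the 3 libraries of a group came from 3 mice. The p-values therefore measure the spread between libraries, which may be partly technical. The 12 libraries held 34766888 to 48953990 reads on the longest transcript of each gene, with a median of 40739310, and a count of 3 reads corresponded to 0.0613 to 0.0863 CPM, the unit used below, in which read counts are scaled to a common library size. Such a floor covers counting error only.

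STAT5A and STAT5B are closely related transcription factors. When IL-2, a growth signal for activated lymphocytes, binds its receptor, the JAK1 and JAK3 kinases on the receptor chains phosphorylate a tyrosine near the end of each STAT5 protein. The phosphorylated proteins pair, enter the nucleus and bind the GAS element, and among their known targets in T cells are the feedback inhibitors *Cish* and *Socs1*, the receptor chain *Il2ra*, cytokines and granzymes. A cell in which 1 of the proteins cannot be phosphorylated still has the other, so a direct comparison of both KI strains at the same time in IL-2 shows which transcripts were lower when phosphorylated STAT5B was missing and which when phosphorylated STAT5A was missing. The paper proposes that each mutated protein may also hinder the unmutated STAT5 protein. The comparison does not separate such an effect from the loss of phosphorylation. Fewer memory-phenotype CD8 T cells were reported by the paper in both KI strains. The part of a different mix of CD8 T cells in the differences below was not tested.

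The designed alleles are shown because they define the groups. *Stat5a* (chr11:100859351-100885169, plus strand) and *Stat5b* (chr11:100780731-100859004, minus strand) are neighbours on GRCm38, 0.3 kb apart. Each pair below gives the reference and then the donor oligonucleotide over the edited stretch in the direction of transcription, with capitals at the bases that differ. The *Stat5a* stretch is chr11:100881722-100881776 and the *Stat5b* stretch is chr11:100784266-100784320. Aligned without a gap, the whole *Stat5b* oligonucleotide as printed differs from the reference at 18 bases. Those outside the stretch shown lie near its 3′ end.
*Stat5a* reference: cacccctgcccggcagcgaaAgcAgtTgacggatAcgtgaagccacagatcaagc
*Stat5a* donor: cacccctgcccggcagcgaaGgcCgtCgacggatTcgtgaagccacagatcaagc
*Stat5b* reference: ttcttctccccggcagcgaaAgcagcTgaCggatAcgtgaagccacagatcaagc
*Stat5b* donor: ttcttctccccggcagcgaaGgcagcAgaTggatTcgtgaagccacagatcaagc
The last capital in each donor changed a TAC codon to TTC, at codon 694 of *Stat5a* and codon 699 of *Stat5b*, and in both genes it lay in coding exon 16 of 18. The 3 earlier differences of each donor lay in the same exon. The guides, shown 5′ to 3′ with the adjoining NGG in capitals, differed at 1 base, T17C (the *Stat5a* guide first, positions from 1 at the 5′ end).
*Stat5a* guide: ccggcagcgaaagcagttgaCGG
*Stat5b* guide: ccggcagcgaaagcagctgaCGG

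The edited genes were themselves transcribed at similar levels in both KI strains. *Stat5a* was at 103, 100 and 97.6 CPM in the *Stat5a* KI libraries and at 99.4, 108.4 and 105.7 CPM in the *Stat5b* KI libraries, a log2 difference of 0.06 ± 0.062 (SE, edgeR quasi-likelihood test, adjusted p = 0.48). *Stat5b* was at 215, 228 and 222 CPM in *Stat5a* KI and at 228, 232 and 233 CPM in *Stat5b* KI (0.06 ± 0.053, adjusted p = 0.42). A point change leaves the transcript in place, so these levels do not check the genotype labels, and a count per transcript does not show the changed base.

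The label CD8 T cell was borne out by its markers, and RNA of other cells was present in every group. The 4 CD8 T cell markers in the files (*Cd8a*, *Cd8b1*, *Cd3e* and *Cd3d*) summed to 2815, 3056 and 2921 CPM in *Stat5a* KI and to 2610, 2655 and 2737 CPM in *Stat5b* KI, and the most abundant of them per length, *Cd8b1*, was at a mean RPKM of 519.5 and 453. Markers of B cells (8 genes, *Cd79a* the most abundant) summed to 430.5, 354.3 and 440.6 CPM in *Stat5a* KI and to 344.3, 349.5 and 387.5 CPM in *Stat5b* KI, where the groups overlapped, against 45.21 to 183.7 CPM in the 6 WT libraries. Markers of macrophages and monocytes (13 genes, *Lyz2* the most abundant) summed to 164.0, 57.25 and 52.38 CPM in *Stat5a* KI and to 158.6, 85.76 and 123.8 CPM in *Stat5b* KI. Of these markers 0 passed the adjusted p between the KI strains, beside 11.2% of all genes higher and 23.3% lower. Markers of dendritic cells (12 genes, *Cd74* the most abundant) summed to 1456 to 1954 CPM in *Stat5a* KI and to 1814 to 2179 CPM in *Stat5b* KI, and markers of CD4 T cells (5 genes, *Cd4* the most abundant) to 79.95 to 85.01 and 95.59 to 101.4 CPM. Markers of plasma cells (5 genes, *Xbp1* the most abundant) summed to 173.9 CPM in *Stat5a* KI replicate 1, to 111.2 CPM in replicate 3 and to slightly less in replicate 2, and to 163.7, 166.5 and 195.3 CPM in *Stat5b* KI. Without *Xbp1* and *Irf4*, which T cells also express, the other 3 (*Sdc1*, *Mzb1* and *Tnfrsf17*) summed to 50.59, 19.12 and 19.49 CPM in *Stat5a* KI and to 52.69, 52.26 and 68.37 CPM in *Stat5b* KI, against at most 9.872 CPM in WT. *Sdc1* was called higher in *Stat5b* KI (1.29, adjusted p = 0.0067) and *Mzb1* was higher at the adjusted p alone (0.84, adjusted p = 0.043). Markers of NK cells (8 genes) summed to 130.3 to 193.1 CPM in *Stat5b* KI, above each of the *Stat5a* KI libraries. *Eomes*, which CD8 T cells also express, was the most abundant of them, and without it the other 7 summed to 33.89 to 39.02 CPM in *Stat5a* KI and to 20.82 to 31.12 CPM in *Stat5b* KI. Over the 8 NK markers the median difference was -0.40. The list of erythroid and platelet markers stood apart through its erythroid members. It summed to 44.69, 37.2 and 24.08 CPM in *Stat5a* KI and to 328.6, 151.5 and 277.5 CPM in *Stat5b* KI. Of the 7 tested members 6 were called higher in *Stat5b* KI, beside 3.91% of all genes. The 6 were erythroid genes, and *Hba-a1* and *Hba-a2* among them had the same reads, which the sums count under both names. The platelet gene *Itga2b* was not called (0.44, edgeR adjusted p = 0.22), and *Pf4* and *Ppbp* had too few reads to be tested. Granulocyte markers (9 genes in the files, *S100a9* the most abundant, *Elane* listed at 0 reads in all 12 libraries) summed to at most 0.7472 CPM in *Stat5a* KI and to 3.291 to 4.763 CPM in *Stat5b* KI. All 3 tested members were called higher in *Stat5b* KI, with log2 differences of 4.70 (*S100a8*), 4.22 (*S100a9*) and 4.18 (*Ltf*). The part of these other cells in the differences below was not tested, and in bulk RNA fewer cells of a type and less RNA per cell cannot be told apart.

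**Figure D1:**
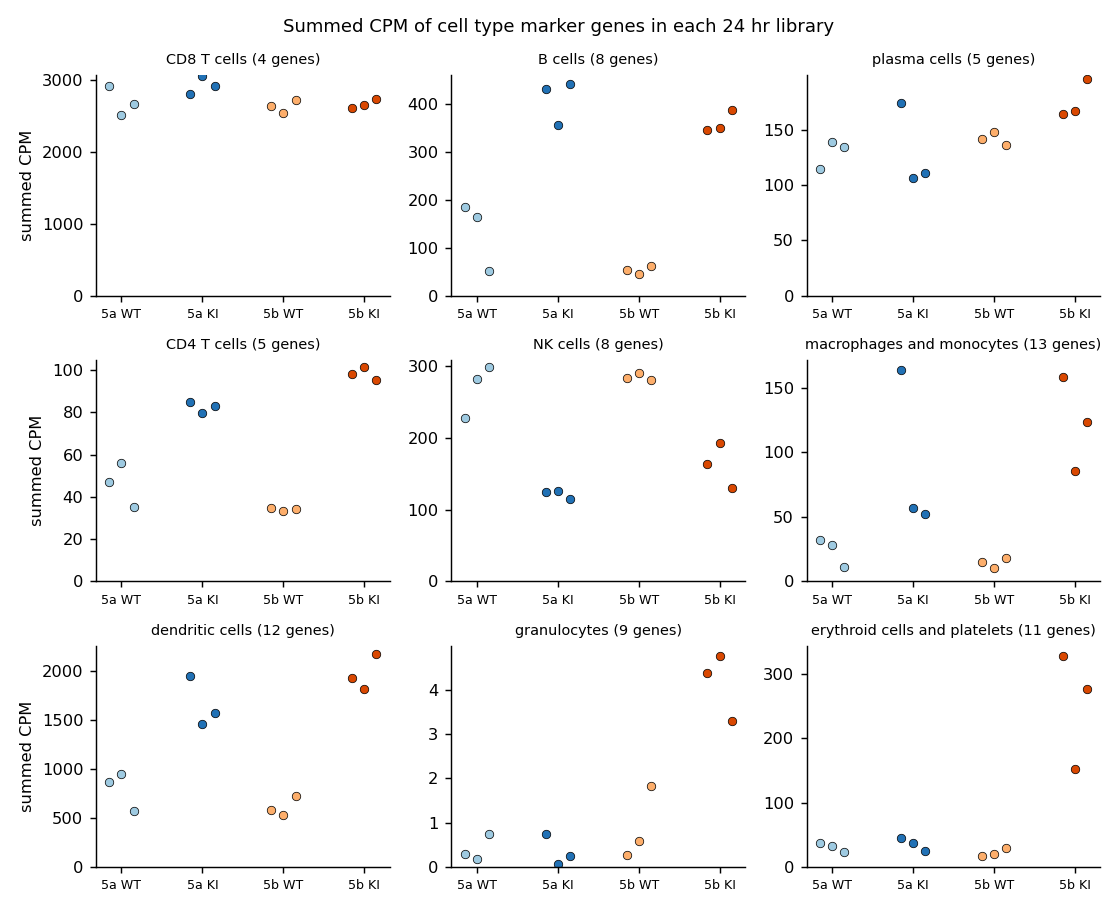
Summed CPM of the marker genes of 9 cell types in each of the 12 libraries at 24 hr, 1 panel for each cell type, with 3 points for each group and each axis starting at 0. The erythroid and platelet markers are at 151.5 to 328.6 CPM in the *Stat5b* KI libraries and at most 44.69 CPM in the other 9 libraries, while the B cell markers are high in both KI groups.

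Within the groups, single libraries of the *Stat5a* line stood apart from their replicates. WT replicate 3 of the *Stat5a* line was at -48.46 on the first principal component (58.69% of the variance), near the *Stat5b* line WT libraries (-49.02 to -42.09), while replicates 1 and 2 were at -25.94 and -25.22, and its B cell markers summed to 51.64 CPM against 183.7 and 163.3 CPM. *Stat5a* KI replicate 1 was at 28.45 against 10.42 and 12.71, in the direction of the *Stat5b* KI libraries (55.31 to 64.98), and its macrophage markers summed to 164.0 CPM against 57.25 and 52.38 CPM.

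Between the KI strains, 651 of 13930 genes tested were called (4.67%), where a call means an adjusted p of at most 0.05 and a difference of at least 2-fold. Of these, 545 (3.91%) were higher and the remainder (0.761%) were lower in *Stat5b* KI than in *Stat5a* KI. The balance turned with the size of the difference and with abundance. With the adjusted p alone, 1558 genes (11.2%) were higher and 3244 (23.3%) were lower. Among the 8867 genes with a mean of at least 10 CPM over the 12 libraries, 40 were called higher and 37 lower, so the share of higher calls was 51.9% there against 83.7% over all genes. The genes called higher had a median level of 0.796 CPM, those called lower 5.45 CPM and all genes tested 22.4 CPM. The *Stat5b* KI libraries had reads for 17366 to 17430 genes, and the *Stat5a* KI libraries for 16478 to 16658. The longest transcripts held 69.9% to 72.46% of the mapped reads in *Stat5b* KI and 75.88% to 76.94% in *Stat5a* KI. The part of these library differences in the calls was not tested. Without *Stat5a* KI replicate 1 the counts were 779 higher and 87 lower, and without *Stat5a* KI replicate 2 they were 354 and 93. The libraries of the KI strains did not overlap for 7065 genes (50.7%), which include 642 of the 651 called.

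The WT comparison gave 1 called gene of 13930 (0.00718%), *Bfsp2*, a lens filament gene at under 1 CPM in every library, with a log2 difference of -4.37. With the adjusted p alone 23 genes passed (0.165%), and 2781 had an unadjusted p under 0.05. This count rested on *Stat5a* line WT replicate 3, without which 164 genes were called between the WT groups, and DESeq2 called 61. The difference between the KI strains was therefore also set against the difference between the WT groups of the same lines. This line-corrected difference passed for 602 genes at 2-fold (4.32%, 398 higher and 204 lower), and this count became 912 without *Stat5a* line WT replicate 3, 752 without *Stat5a* KI replicate 1 and 390 without *Stat5a* KI replicate 2. It passed for 3824 genes at the adjusted p alone (27.5%), of which 1148 (8.24%) were higher and 2676 (19.2%) lower. Of the 651 genes called between the KI strains, 286 (2.05% of all genes) also passed the line-corrected test at the adjusted p in the same direction. They were 86 of the lower genes and 200 of the 545 higher genes.

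**Figure D2:**
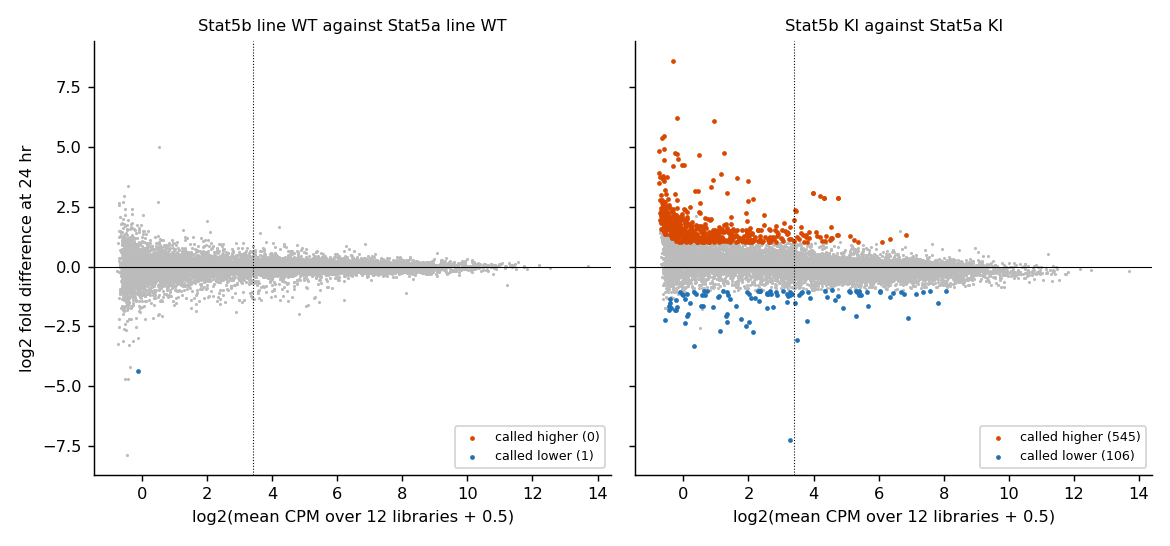
Log2 fold difference at 24 hr (vertical axis) against log2 of the mean CPM over 12 libraries plus 0.5 (horizontal axis) for 13930 genes, with the WT groups on the left and the KI groups on the right and the dotted line at 10 CPM. The WT groups gave 1 called gene, while the 545 genes called higher in *Stat5b* KI lie mainly left of the line and the genes called lower are spread across it.

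Set against its own WT, *Stat5b* KI differed in more genes than *Stat5a* KI did. *Stat5b* KI differed from its WT in 2546 genes (18.3%), with 1637 higher and 909 lower. *Stat5a* KI differed from its WT in 692 genes (4.97%), with 477 higher and 215 lower. Marker medians of other cell types changed from WT as well, given here as log2 for the *Stat5a* and then the *Stat5b* line. They were 1.64 and 2.94 for B cells, 2.0 and 3.76 for macrophages, and 1.21 and 1.74 for dendritic cells. CD4 T cells had 0.88 and 1.35, plasma cells 1.83 and 3.37, and erythroid cells and platelets 0.18 and 3.76. Granulocytes had -0.83 and 2.46 and NK cells -0.13 and -0.57. The part of these cells in the counts was not tested. Of the 602 genes with a line-corrected difference of at least 2-fold, 554 showed the larger effect in the *Stat5b* line and 48 in the *Stat5a* line. At a mean of at least 10 CPM there were 158 such genes, and the *Stat5b* effect was the larger in all 158, with 51 higher and the others lower. At the adjusted p alone the *Stat5b* effect was larger in 3658 of 3824 genes and the *Stat5a* effect in 166, of which 105 had a mean of at least 10 CPM. Genes called lower in *Stat5b* KI had a median log2 change of -0.574 with the *Stat5a* change and of -2.13 with the *Stat5b* change, and those called higher 0.0734 and 1.52. These last medians describe genes that were chosen by the KI difference.

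**Figure D3:**
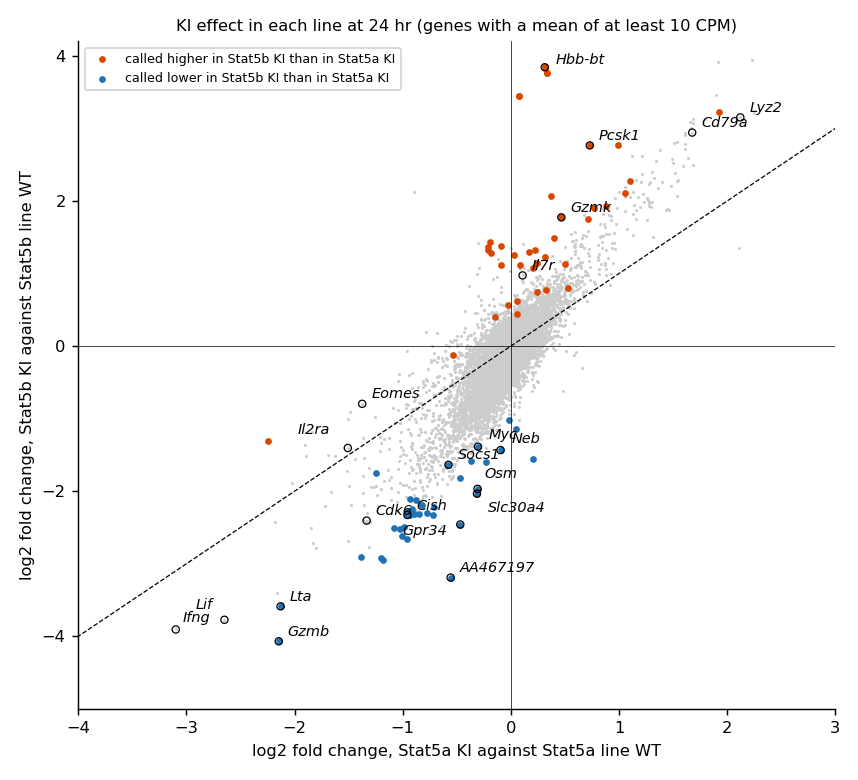
Log2 fold change of *Stat5a* KI against its WT (horizontal axis) and of *Stat5b* KI against its WT (vertical axis) for the 8867 genes with a mean of at least 10 CPM, with the dashed line where both are equal and coloured points for the 77 genes called between the KI strains. *Osm* (-0.31 and -1.97), *Slc30a4* (-0.31 and -2.03) and *AA467197* (-0.56 and -3.19) lie far below the line, while *Il2ra* (-1.51 and -1.40) lies close to it.

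The feedback inhibitors of the receptor were among the genes that fell further in *Stat5b* KI. *Cish* (chr9:107296659-107302784), which encodes an SH2 protein that dampens IL-2 receptor signalling, was at 47.8, 43.5 and 42.4 CPM in *Stat5a* KI and at 19.6, 26.7 and 18.6 CPM in *Stat5b* KI. The groups did not overlap, and both were below the 80.6 to 117.9 CPM of the 6 WT libraries. The log2 difference between the KI strains was -1.05 ± 0.12 (adjusted p = 4.1e-05), and the line-corrected difference was -1.37 (adjusted p = 9.2e-05). *Socs1* (chr16:10783808-10785536), a JAK inhibitor, was at 154, 149.7 and 138.96 CPM in *Stat5a* KI and at 65.7, 78.8 and 67.3 CPM in *Stat5b* KI, with WT means of 220 CPM in both lines (-1.06 ± 0.092, adjusted p = 6.4e-06). These were the 2 called members of the 21 genes tested in the list of JAK, STAT and SOCS genes, beside 0.761% of all genes called lower, and the list's median was -0.01 against -0.03 over all genes. Other inhibitors of the family did not follow. *Socs3* was at 129.4 to 135.6 CPM in *Stat5a* KI and at 128.8 to 136.7 CPM in *Stat5b* KI (-0.02 ± 0.081, adjusted p = 0.87). *Socs2* was at 20, 14.9 and 10.9 CPM in *Stat5a* KI and at 20, 25.6 and 19.5 CPM in *Stat5b* KI, where it was the higher (0.50 ± 0.18, adjusted p = 0.048) with overlapping groups, and its line-corrected difference did not pass (0.51, adjusted p = 0.15).

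**Figure D4:**
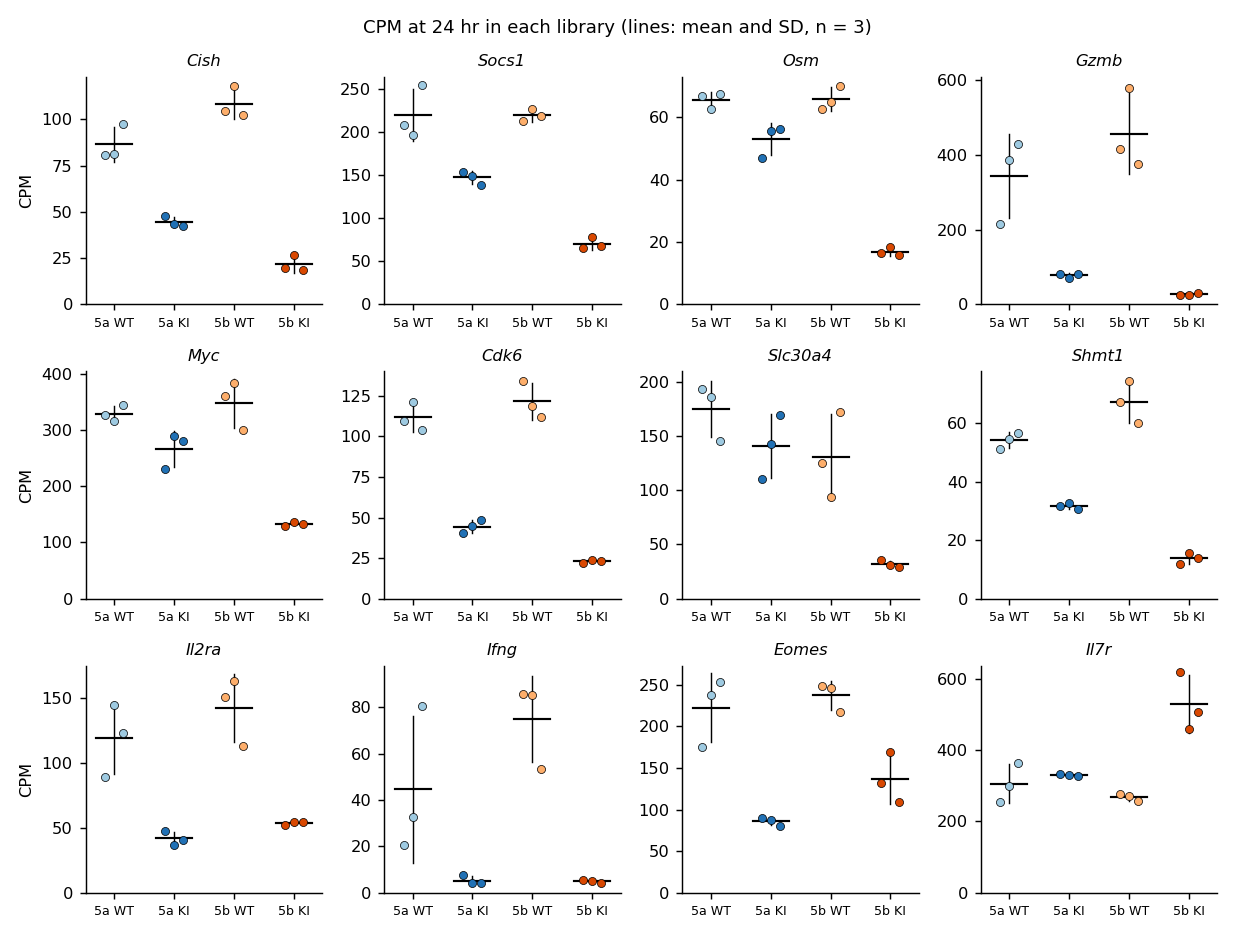
CPM of 12 genes in each library at 24 hr (points) with the group mean and SD (lines, n = 3), for WT and KI of the *Stat5a* line (5a) and of the *Stat5b* line (5b), each vertical axis starting at 0. *Cish*, *Socs1*, *Osm*, *Gzmb*, *Myc*, *Cdk6*, *Slc30a4* and *Shmt1* are lowest in *Stat5b* KI, *Il2ra* and *Ifng* are low in both KI groups, *Eomes* is lowest in *Stat5a* KI and *Il7r* is highest in *Stat5b* KI.

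The receptor chains differed in size and direction. *Il2ra*, the high-affinity chain of the IL-2 receptor, fell in both lines by similar amounts, from means of 119.1 and 142.2 CPM in WT to 47.6, 37.1 and 41 CPM in *Stat5a* KI and 52, 54.9 and 54.2 CPM in *Stat5b* KI. The KI libraries did not overlap, but the difference of 0.36 ± 0.16 did not pass (adjusted p = 0.11), nor did the line-corrected difference (0.10, adjusted p = 0.77). With the 6 KI libraries alone in the fit the KI difference of *Il2ra* passed (0.40, adjusted p = 0.0046). *Il2rb*, the signalling chain shared with IL-15, was at 472, 477 and 449 CPM in *Stat5a* KI and at 335, 417 and 316 CPM in *Stat5b* KI (-0.39 ± 0.089, adjusted p = 0.0045), and *Il2rg*, the common gamma chain, at 623 to 630 and 498 to 533 CPM (-0.27 ± 0.057, adjusted p = 0.0031). Both were below 2-fold. *Il7r*, the IL-7 receptor chain of resting and memory T cells, was higher, with 327 to 332 CPM in *Stat5a* KI and 459 to 618 CPM in *Stat5b* KI (0.68 ± 0.12, adjusted p = 0.00069). *Il9r* was the 1 called member of the 8 receptor genes (3.91% of all genes were called higher), at 4.03, 3.19 and 2.86 CPM in *Stat5a* KI and 8.48, 10.2 and 8.38 CPM in *Stat5b* KI against at most 0.846 CPM in WT (1.42 ± 0.23, adjusted p = 0.00042). Of the 14 other cytokine receptors, 4 were higher and 2 lower at the adjusted p alone, beside 11.2% and 23.3% of all genes, and 0 were called, beside 4.67% of all genes.

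Among secreted factors, *Osm*, a cytokine of the IL-6 family, separated the strains most cleanly. It was at 62.6 to 70.2 CPM in the 6 WT libraries, at 47.1, 55.6 and 56.4 CPM in *Stat5a* KI and at 16.4, 18.4 and 15.8 CPM in *Stat5b* KI, which is 3.15-fold lower (-1.65 ± 0.08, adjusted p = 3.5e-07). *Lta*, lymphotoxin alpha, was at 21.7, 21.9 and 23.4 CPM in *Stat5a* KI and at 10.4, 12.5 and 10.5 CPM in *Stat5b* KI (-1.01 ± 0.15, adjusted p = 0.00027), after large falls in both lines from WT means of 97.8 and 133.4 CPM. *Tnf* was the third called member of the 15 cytokines and ligands tested (-1.18, adjusted p = 2.5e-05), and no member was called higher, beside 0.761% of all genes called lower and 3.91% higher. *Ifng*, the effector cytokine interferon gamma, and *Lif* fell steeply in both lines. *Ifng* was at 7.52, 4.06 and 4.04 CPM in *Stat5a* KI and at 5.6, 5.11 and 4.25 CPM in *Stat5b* KI against 20.4 to 85.8 CPM in WT, and the KI groups overlapped (-0.07 ± 0.48, adjusted p = 0.93). *Lif* was at 3.93 to 7.98 and 2.11 to 4.15 CPM (-0.88 ± 0.37, adjusted p = 0.084). The wide errors leave differences of about that size in either direction undetectable with these libraries.

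Among granule genes *Gzmb* was lower and *Gzmk* higher in *Stat5b* KI. *Gzmb*, granzyme B, was at 81.7, 69.3 and 81.8 CPM in *Stat5a* KI and at 24.6, 25.7 and 31.4 CPM in *Stat5b* KI, from WT means of 344 and 458 CPM (-1.51 ± 0.23, adjusted p = 0.00028), and its line-corrected difference was -1.92 (adjusted p = 0.00068). *Gzmk*, granzyme K, was at 9.81, 5.2 and 3.38 CPM in *Stat5a* KI and at 53, 45.9 and 42.9 CPM in *Stat5b* KI (2.94 ± 0.56, adjusted p = 0.0014). The WT groups of *Gzmk* also differed, at 1.89, 1.35 and 9.82 CPM for *Stat5a* littermates and 15.5, 18 and 7.88 CPM for *Stat5b* littermates, and its line-corrected difference did not pass (1.31, adjusted p = 0.23). *Gzmc* was the third called member of the 11 tested and was lower, beside 0.761% of all genes called lower and 3.91% higher, and after line correction 3 of the 11 were lower and 0 higher at the adjusted p alone (19.2% and 8.24% of all genes). *Prf1*, perforin, was at 36.1 to 46.1 and 48.4 to 59 CPM (0.34 ± 0.1, adjusted p = 0.019), but the WT groups differed by 0.29 and the line-corrected difference was 0.05 (adjusted p = 0.81). *Gzma* did not pass (-0.59 ± 0.39, adjusted p = 0.26).

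Several growth and survival genes were lower in *Stat5b* KI. *Myc*, which drives ribosome production and entry into the cell cycle, was at 231, 290 and 280 CPM in *Stat5a* KI and at 130.1, 135.7 and 133.6 CPM in *Stat5b* KI (-1.0 ± 0.093, adjusted p = 9.4e-06). Its log2 change from WT was -0.30 with the *Stat5a* change and -1.39 with the *Stat5b* change. *Mycn* was lower as well (-2.09 ± 0.4, adjusted p = 0.0015) at under 1 CPM in all KI libraries, and the 2 were the called members of 22 MYC and E2F network genes, beside 0.761% of all genes called lower. *Cdk6*, a kinase of the G1 phase, was at 40.2, 44.6 and 48.3 CPM in *Stat5a* KI and at 21.8, 23.9 and 23.3 CPM in *Stat5b* KI against 104 to 134.5 CPM in WT (-0.95 ± 0.086, adjusted p = 8.4e-06). *Ccnd2*, cyclin D2, was at 878 to 976 and 598 to 611 CPM (-0.63 ± 0.054, adjusted p = 6.4e-06). *Bcl2*, which blocks apoptosis, was at 730 to 893 and 486 to 533 CPM (-0.67 ± 0.08, adjusted p = 5.2e-05), and the kinase *Pim1* at 224 to 254 and 160 to 163 CPM (-0.56 ± 0.062, adjusted p = 2.6e-05). Of the 17 PIM and BCL2 family genes tested, 9 were lower and 3 higher at the adjusted p alone (23.3% and 11.2% of all genes) and none was called.

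The machinery of DNA replication was lower nearly throughout. Of 30 genes tested, 28 were lower in *Stat5b* KI at the adjusted p alone and none was higher, against 23.3% lower over all genes, and the median log2 difference was -0.72. The line-corrected median was -0.997, with 29 of 30 lower at the adjusted p alone, against 19.2% of all genes. *Cdc6*, *Mcm10* and *Cdc45* were called, 3 of the 30 beside 0.761% of all genes called lower. *Cdc6*, which loads the replicative helicase, was at 31.5, 28 and 24.4 CPM in *Stat5a* KI and at 10.3, 18.3 and 11.3 CPM in *Stat5b* KI (-1.08 ± 0.18, adjusted p = 0.00059), and *Mcm5*, a subunit of that helicase, at 211, 219 and 197 and at 107.3, 141.96 and 113.5 CPM (-0.79 ± 0.09, adjusted p = 3.6e-05). Mitosis genes showed a smaller shift, with 9 of 24 lower at the adjusted p alone and a median of -0.39. *Mki67*, a proliferation marker, was at 143.4 to 215 and 112.9 to 163 CPM with overlapping groups (-0.33 ± 0.18, adjusted p = 0.19). The cyclins and CDKs had 10 lower and 2 higher of 21, beside 23.3% and 11.2% of all genes, with a median of -0.06.

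Lists of growth metabolism had lower medians in *Stat5b* KI, each by less than 2-fold. At the adjusted p alone 23.3% of all genes were lower and 11.2% higher, and 19.2% were lower after line correction. All 24 ribosome biogenesis genes tested were lower at the adjusted p alone (median -0.65, from -0.36 for *Polr1c* to -0.77 for *Fbl*), and all 24 also passed the line-corrected test. The sterol and fatty acid synthesis list had 20 of 21 lower (median -0.36), and its median change from WT was -0.02 for the *Stat5a* change and -0.44 for the *Stat5b* change. Glycolysis had 13 of 18 lower and 1 higher (median -0.39). Of 19 amino acid transporters and one-carbon enzymes, 13 were lower and 1 higher, and the 1 called member, beside 0.761% of all genes called lower, was *Shmt1*, cytosolic serine hydroxymethyltransferase, at 31.7, 32.7 and 30.6 CPM in *Stat5a* KI and at 11.9, 15.6 and 13.7 CPM in *Stat5b* KI (-1.21 ± 0.097, adjusted p = 3.8e-06). The 12 TCR complex and CD8 genes tested had a median of -0.11 with 3 lower and none higher, and the 8 GIMAP genes 0.09 with 2 higher and none lower. The 20 naive and quiescence genes had a median of 0.02 with 4 higher and 2 lower, and after line correction 7 were higher and 1 lower, beside 8.24% and 19.2% of all genes.

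**Figure D5:**
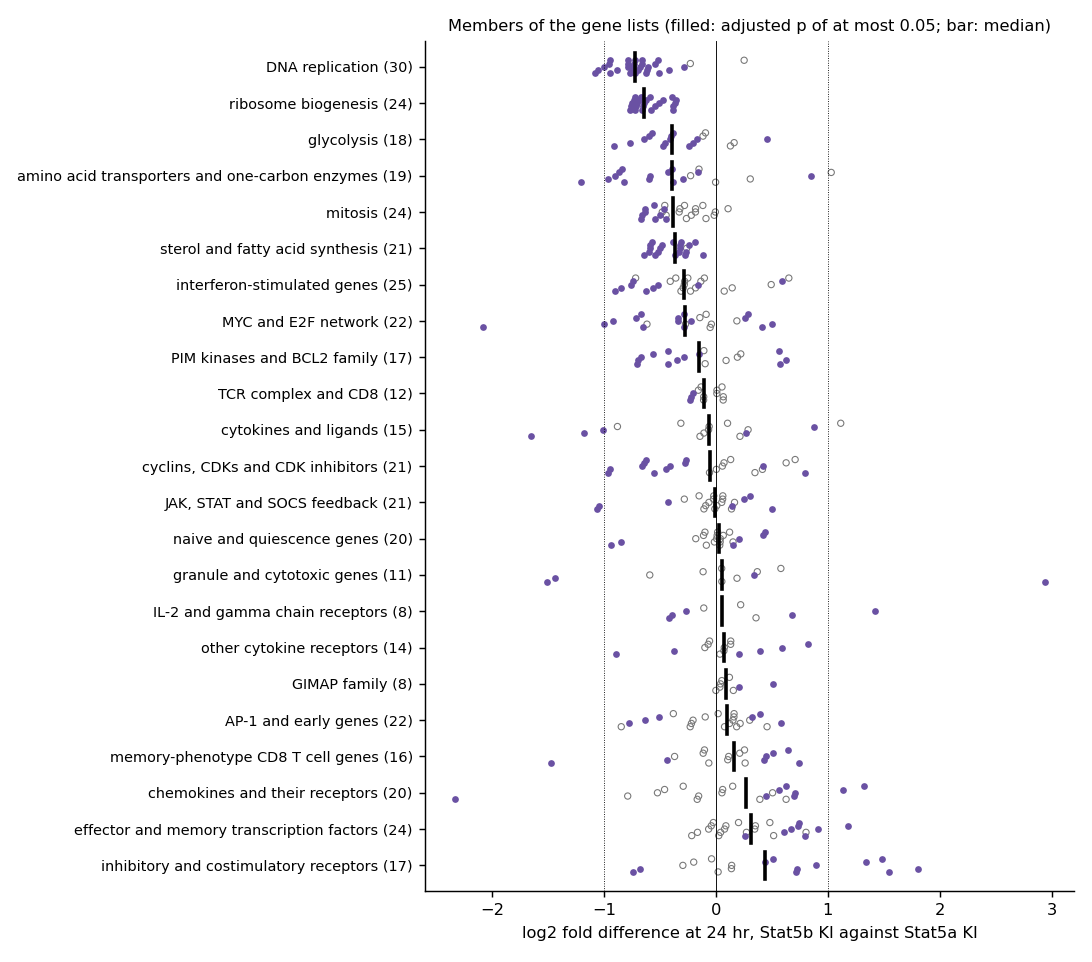
Log2 fold difference between the KI strains at 24 hr (horizontal axis) for the tested members of 23 gene lists (rows, with the number tested), where a point is a gene, filled at an adjusted p of at most 0.05, and the bar is the median. The DNA replication and ribosome biogenesis members lie almost wholly left of 0, with medians of -0.72 and -0.65, and the inhibitory and costimulatory receptors have the highest median, 0.44.

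The 10 largest falls, among genes that also passed the line-corrected test, did not overlap and had a mean of at least 10 CPM in the higher KI group, included several genes outside these lists. *AA467197* was at 9.18, 13 and 12.6 CPM in *Stat5a* KI and at 1.3, 1.67 and 1.14 CPM in *Stat5b* KI, 8.48-fold lower (-3.08 ± 0.23, adjusted p = 2.8e-06). *Slc30a4*, a zinc transporter, was at 109.9, 142.97 and 169 CPM in *Stat5a* KI, within the WT range of 93.6 to 193 CPM, and at 35.5, 30.7 and 29.2 CPM in *Stat5b* KI (-2.14 ± 0.21, adjusted p = 1.2e-05). *AA467197* and *Slc30a4* are 40.2 kb apart on chromosome 2. *Gpr34*, a lysophosphatidylserine receptor, was 4.8-fold lower, *Drc1* 4.16-fold, *Syt6*, a synaptotagmin, 3.32-fold, and *Neb*, which encodes nebulin, 2.62-fold. *Gzmb* and *Osm* are described above. *Cdca7*, a MYC and E2F target, was at 62.8 to 67.9 CPM in *Stat5a* KI and 23.3 to 31 CPM in *Stat5b* KI, 2.41-fold lower, and *Klra7*, an inhibitory receptor of the Ly49 family, was 2.4-fold lower. Another lectin receptor, *Klrb1c*, was below 10 CPM in both KI groups (-1.47 ± 0.22, adjusted p = 0.00024). It is also 1 of the NK cell markers, whose sum without *Eomes* was lower in *Stat5b* KI. It was the 1 called member of 16 memory-phenotype genes, beside 0.761% of all genes called lower, and at the adjusted p alone 5 of the 16 were higher and 2 lower (11.2% and 23.3% of all genes). For *Drc1* and *Neb* the *Stat5a* line showed no passing change from WT (adjusted p = 0.46 and 0.50).

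Among genes that met this rule for abundance and line correction, the largest rises were genes of red blood cells. The same rule gave 10 genes higher in *Stat5b* KI, and 6 of them were globin entries, which are 3 pairs of near-identical genes or alleles whose reads cannot be told apart (*Hba-a1* and *Hba-a2*, *Hbb-bs* and *Hbb-b1*, *Hbb-bt* and *Hbb-b2*). *Hbb-bt* was at 7.76, 5.92 and 3.38 CPM in *Stat5a* KI and at 63.6, 26.5 and 52.8 CPM in *Stat5b* KI (3.06 ± 0.36, adjusted p = 4.9e-05), beside the erythroid marker sums above. The other 4 were *Slpi*, a protease inhibitor, at 11.2, 3.14 and 2.26 CPM and at 27, 24.9 and 34.1 CPM, *Pcsk1*, a prohormone convertase, at 4.1, 7.59 and 5.4 CPM and at 31.4, 26.6 and 27.1 CPM (2.32 ± 0.19, adjusted p = 4.3e-06), *Tmevpg1*, a noncoding RNA next to *Ifng*, at 4.14 to 4.6 CPM and 10.8 to 22.5 CPM, and *Crispld2* at 3.58 to 7.54 CPM and 12.2 to 20.7 CPM. All 4 were higher in *Stat5b* KI than in every WT library. Leaving out the members of the marker lists of other cell types, 36 genes of at least 10 CPM were called higher and 37 lower. The 36 still include *Hbb-b1* and *Hbb-b2*, which are not on those lists.

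Several receptors of activated and chronically stimulated T cells were higher in *Stat5b* KI. Of 17 inhibitory and costimulatory receptors tested, 9 were higher and 2 lower at the adjusted p alone (11.2% and 23.3% of all genes), with a median of 0.44, and 4 were called, all higher, beside 3.91% of all genes: *Pdcd1* (1.34), *Lag3* (1.49), *Tigit* (1.54) and *Tnfrsf8*. *Tnfrsf8*, encoding CD30, was at 0.193 to 0.289 CPM in *Stat5a* KI and at 0.794 to 1.03 CPM in *Stat5b* KI (1.81 ± 0.34, adjusted p = 0.0013), against WT means of 0.647 and 0.581 CPM. It fell by 1.37 on the log2 scale with the *Stat5a* change (adjusted p = 0.01), while its log2 difference with the *Stat5b* change was 0.59 (adjusted p = 0.1). The line-corrected test passed for *Lag3*, *Tigit* and *Tnfrsf8*, and not for *Pdcd1* (adjusted p = 0.33). Of 24 effector and memory transcription factors, 8 were higher and none lower at the adjusted p alone (11.2% and 23.3% of all genes), and after line correction 4 were higher and 2 lower (8.24% and 19.2% of all genes). *Prdm1*, which encodes Blimp-1, was the 1 member called between the KI strains, beside 3.91% of all genes called higher, at 8.44, 5.03 and 3.91 CPM and at 14.1, 12.7 and 12.6 CPM (1.18 ± 0.26, adjusted p = 0.0033; line-corrected adjusted p = 0.093). Plasma cells also express *Prdm1*, and the part of their RNA, whose markers *Sdc1* and *Mzb1* were higher in *Stat5b* KI, was not tested. Of 20 chemokine and chemokine receptor genes tested, 2 were called higher and 1 lower, beside 3.91% and 0.761% of all genes. *Ccl5* had the largest rise, and *Ccl1* was the lower one. *Ccl5* was at 101, 73.1 and 42.7 CPM in *Stat5a* KI and at 199, 167 and 178 CPM in *Stat5b* KI (1.32 ± 0.27, adjusted p = 0.0023), but the WT groups differed in the same direction (means of 69.3 and 133.5 CPM) and the line-corrected difference did not pass (0.38, adjusted p = 0.48). *Ccl1* was at 0.367 to 1.01 CPM in *Stat5a* KI and at 0.106 to 0.135 CPM in *Stat5b* KI (-2.33 ± 0.8, adjusted p = 0.037). The *Stat5b* KI values lie close to the 0.0613 to 0.0863 CPM of a count of 3 reads.

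Few genes showed the larger effect in the *Stat5a* line. In 25 genes the *Stat5a* KI effect was called, was larger in size than the *Stat5b* KI effect and differed from it at the line-corrected adjusted p, 20 with a fall and 5 with a rise in *Stat5a* KI. Only 1 of them, *2010002M12Rik*, reached 10 CPM in any group. It was at 5.04, 3.36 and 3.88 CPM in *Stat5a* KI and at 7.42, 6.77 and 6.28 CPM in *Stat5b* KI, against WT means of 10.7 and 7.72 CPM, and fell by 1.39 on the log2 scale with the *Stat5a* change, while its log2 difference with the *Stat5b* change was -0.18 (adjusted p = 0.52). Its WT libraries of the *Stat5a* line ranged from 6.37 to 14.3 CPM. *Eomes*, a T-box factor of memory CD8 T cells, leaned the same way. It was at 89.7, 87 and 80.8 CPM in *Stat5a* KI and at 132.4, 169 and 109.4 CPM in *Stat5b* KI without overlap (0.67 ± 0.15, adjusted p = 0.0035), against WT means of 223 and 238 CPM, and the line-corrected difference just missed the threshold (0.58, adjusted p = 0.053). For *Tbx21*, its relative, the KI difference was -0.07 ± 0.16 (adjusted p = 0.79) and the line-corrected difference -0.71 (adjusted p = 0.034). The interferon-stimulated genes fell in both lines by similar amounts, with median changes from WT of -1.04 and -0.95 over 25 genes, 13 called lower with the *Stat5a* change and 10 with the *Stat5b* change, beside 1.54% and 6.53% of all genes. Between the KI strains 8 were lower and 1 higher at the adjusted p alone (23.3% and 11.2% of all genes), with 2 lower and 2 higher after line correction (19.2% and 8.24% of all genes).

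The genes called between the KI strains were set beside the response of WT cells to IL-2, which came from other libraries (24 hr against 0 hr, both lines, in a fit of 36 libraries). IL-2 induced 1412 of 14947 genes (9.45%) and reduced 2317 (15.5%). Of the genes lower in *Stat5b* KI, 73 (68.9%) were induced and 6 (5.66%) reduced. Of the 545 higher genes, 19 (3.49%) were induced and 175 (32.1%) reduced. At a mean of at least 10 CPM, where 9.48% of genes were induced and 4.96% reduced, 32 of the 37 lower genes were induced and none reduced, and 2 of the 40 higher genes were induced and 15 reduced. *Osm* rose by 3.62 on the log2 scale with IL-2 in WT cells, *Gzmb* by 4.71, *AA467197* by 4.35, *Socs1* by 3.26 and *Cish* by 2.49.

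The same comparison before IL-2 and at 48 hr showed when these differences were present. Between the KI strains, 463 genes (3.1%) were called at 0 hr, 369 of them higher, and 847 (5.67%) at 48 hr, 753 of them higher. These differences are not corrected for the lines, and between the WT groups at 0 hr 36 genes were higher and 93 lower (0.863% in all). The fit treated the times as independent, although libraries of 1 replicate number at several times may come from the same mouse, which was not tested. Of the genes lower at 24 hr, 16 had the same call at 0 hr and 6 the opposite call, while 41 had the same call at 48 hr and none the opposite. Of the 545 higher genes, the same call was made for 120 at 0 hr and for 338 at 48 hr, and the opposite call for 1 at 0 hr. The change of the KI difference from 0 to 24 hr was called for 428 genes (2.86%). *Osm* was level at 0 hr (0.03, adjusted p = 0.89) and lower at 48 hr (-1.31), and so was *Cdk6* (-0.10 and -0.93), while *Cish* (-1.08), *Myc* (-0.91), *Pim1* (-0.68) and *Drc1* (-2.43) were already lower at 0 hr. The WT groups differed in the same direction at 0 hr for *Cish* (-0.69, adjusted p = 0.043), *Myc* (-0.98, adjusted p = 0.0021) and *Pim1* (-0.66, adjusted p = 0.0069), and by 0.24 for *Drc1* (adjusted p = 0.66). *Gzmb* was higher in *Stat5b* KI at 0 hr (1.05, adjusted p = 0.015) and lower at 24 and 48 hr. The cell cycle lists changed sides in the same way. The median of the mitosis genes was 0.85 at 0 hr (0.08 between the WT groups), -0.39 at 24 hr and -0.64 at 48 hr, and the KI difference of 19 of 24 members fell from 0 to 24 hr at the adjusted p alone, against 13.8% of all genes. For DNA replication the medians were 0.25, -0.72 and -0.66, with 28 of 30 falling. The naive and quiescence genes went from -0.40 at 0 hr to 0.02 at 24 hr, and the KI difference of 16 of 20 rose, against 9.42% of all genes.

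Genes near the edited pair did not stand out. Of 179 tested genes within 5 Mb of *Stat5a* and *Stat5b*, 5 were called between the KI strains (2.79%, against 4.67% of all genes) and 0 between the WT groups. In the line-corrected test 7 were called (3.91%, against 4.32% of all genes). The 5 were *Cdc6*, which was lower, and *Mrc2*, *Cntnap1*, *Fkbp10* and *Slc4a1*, which were higher. *Slc4a1* encodes the anion exchanger of red blood cells.

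The letters TTCNNNGAA, the core of the GAS element, read the same on both strands and were sought in the RefSeq promoters of GRCm38.p6, 300 bases from 250 before to 50 after each annotated start. They occurred in 8.3% of 32851 promoters. Counted by gene, they occurred in 8.39% of the 10190 tested genes with an entry, in 10 of 68 genes lower in *Stat5b* KI (14.7%) and in 27 of 373 higher genes (7.24%). Of the 48 named genes with an entry 9 held the letters. The stretches of the 3 among the receptor and feedback genes are shown 5′ to 3′ in the direction of transcription, with the match in capitals, because their transcripts went 3 ways. *Cish* (chr9:107296599-107296678, matches that begin 1 and 12 bases into the transcript) was lower in *Stat5b* KI, *Socs3* (chr11:117969482-117969580, minus strand) was level and *Il7r* (chr15:9529980-9530078, minus strand) was higher. A match in this window is a description and not a measured binding site.
*Cish*: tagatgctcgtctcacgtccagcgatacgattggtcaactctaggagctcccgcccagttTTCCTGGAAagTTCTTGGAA
*Socs3*: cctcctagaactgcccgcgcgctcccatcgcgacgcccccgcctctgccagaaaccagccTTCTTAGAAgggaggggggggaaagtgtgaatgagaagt
*Il7r*: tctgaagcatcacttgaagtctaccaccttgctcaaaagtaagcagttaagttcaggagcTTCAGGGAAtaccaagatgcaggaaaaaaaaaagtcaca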

How the data were processed

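The series holds transcriptomes of CD8+ T cells from the spleen for 2 lines of mice, with 3 libraries a group. The authors aligned the reads by TopHat 2.0.11 to the mm10 (GRCm38) genome, kept uniquely mapped reads, and deposited for each library a raw count and an RPKM for each of 31682 RefSeq transcripts (submitters' notes also list Bowtie2 2.2.6, SAMtools 0.1.8, bedtools 2.25.0 and edgeR). The counting program and the use of strand are not given in the sources used here, so overlapping and antisense genes cannot be told apart. A count on an exon shared by isoforms stands in each of their rows, so the longest transcript of each of 23992 symbols was used. Such counts of near-identical genes are uncertain.

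Counts of the 12 libraries at 24 hr were fitted by quasi-likelihood in edgeR 4.0.16 (R 4.3.3; glmQLFit and glmQLFTest, TMM scaling, genes kept by filterByExpr at a count of 10), 1 mean for each of 4 groups, 8 residual degrees of freedom, and contrasts for KI against KI, WT against WT, KI against WT in each line, and the difference of the KI effects (line-corrected). CPM values are counts scaled by TMM library sizes. P-values were adjusted by Benjamini-Hochberg over all genes tested. The comparisons at 0 and 48 hr and the IL-2 response used a fit of the 36 libraries of 0, 24 and 48 hr (14947 genes). The deposited RPKM served to order marker genes by abundance and for limma 3.58.1. The script was tested on simulated data. The files hold 0 columns of other samples. Library pairs of a group differed by more than sampling noise.

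The comparison, the gene lists, the markers and the rule for named genes were chosen with earlier results of these data known, and some lists hold genes that the study picked on these samples, so their counts are not independent evidence. Named were *Stat5a* and *Stat5b*, the 10 largest falls and rises between the KI strains that passed the line-corrected test without overlap at 10 CPM or more in the higher KI group (33 and 37 qualified), the genes of at least 10 CPM with the larger effect in the *Stat5a* line (1 qualified), 27 IL-2 genes, the called members of each list with the largest fall and rise, and the most abundant marker of each cell type. The remaining called members of a list, and *Bfsp2*, *Baiap2l1* and the genes near the edited pair, were named after their values were seen. Alternatives were DESeq2 1.42.0, its size factors in edgeR, other filters, limma on log2(RPKM + 1) and log2(RPKM + 0.1), 47 and 48 libraries in the fit, only the 6 libraries compared, the replicate number as a block, the most-read transcript, no fold threshold, and each library left out. Python 3.11.15 and matplotlib 3.10.9 were used for summaries and figures. ChIP-seq and proteome data of the study were not used here.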

Additional observations from a re-analysis of the deposited data

Results flagged for a closer look

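For 34 of the 64 named genes the KI effect differed between the *Stat5a* line and the *Stat5b* line in a test of the difference itself (edgeR's line-corrected contrast, adjusted p of at most 0.05 and at least 2-fold). Of all genes tested, 4.32% passed at the same thresholds. The 10 falls, the 10 rises and *2010002M12Rik* of the naming rule had been chosen partly by the adjusted p of this same contrast, so for them the values are a description. The called list members with the largest fall or rise had been chosen by the KI difference, which is part of this contrast. Their values are therefore a description as well. Values are log2 of the *Stat5b* KI effect over the *Stat5a* KI effect, so a negative value is a lower level in *Stat5b* KI after the WT difference is taken out. Among signalling, cytokine and granule genes the values were -1.37 for *Cish*, -1.06 for *Socs1*, -1.66 for *Osm*, -1.46 for *Lta*, -2.94 for *Ccl1* and -1.92 for *Gzmb*. For growth and cell cycle genes they were -1.08 for *Myc*, -2.77 for *Mycn*, -1.07 for *Cdk6*, -1.42 for *Cdc6*, -1.07 for *Mcm5*, -1.51 for *Cdca7* and -1.52 for *Shmt1*. Receptors and other genes that were lower had -1.75 for *Klrb1c*, -1.61 for *Klra7*, -1.99 for *Gpr34*, -1.72 for *Slc30a4*, -2.63 for *AA467197*, -1.75 for *Drc1*, -1.5 for *Syt6* and -1.34 for *Neb*. Those that were higher had 1.61 for *Tmevpg1*, 1.77 for *Crispld2*, 1.79 for *Slpi*, 1.96 for *Tnfrsf8*, 2.02 for *Il9r* and 2.04 for *Pcsk1*. The globin entries had 3.37 for *Hba-a1* and *Hba-a2*, 3.42 for *Hbb-bs* and *Hbb-b1*, and 3.53 for *Hbb-bt* and *Hbb-b2*, beside erythroid marker sums that were higher in all 3 *Stat5b* KI libraries. *2010002M12Rik* had 1.21, and for it and *Tnfrsf8* the larger KI effect was a fall in the *Stat5a* line. Groups of 3 libraries were not searched for single outlying values.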

How the results depend on the processing

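Shares are of the genes tested under each setting. Between the KI strains 3.91% of genes were higher and 0.761% lower. An RPKM of at least 5 in 2 libraries gave 0.62% and 0.34%, limma on log2(RPKM + 1) 0.474% and 0.2%, and limma on log2(RPKM + 0.1) 1.4% and 0.583%. All 48 libraries gave 1.11% and 0.37%, and no fold threshold 11.2% and 23.3%. A mean of at least 10 CPM, chosen after seeing the data, gave 0.451% and 0.417%. Without the listed markers of other cell types this became 0.407% and 0.419%, with *Hbb-b1* and *Hbb-b2*, which are not listed, still counted. The part of the calls that were higher was 83.7%, but 64.6% with the RPKM filter, 70.3% and 70.6% with limma, 75% with 48 libraries and 32.4% without a fold threshold. Leaving out 1 library gave 2.5% to 5.5% higher and 0.615% to 0.909% lower. The share called between the WT groups, 0.00718%, became 0.0287% with DESeq2's size factors, 0.438% with DESeq2, 0.127% without a filter, 0.0608% with the RPKM filter, 0.0729% and 0.219% with limma, 0.165% without a fold threshold, 0 with the 6 libraries alone or the most-read transcript, and 0 to 1.16% without 1 library. The line-corrected share, 4.32%, became 1.69% with the RPKM filter, 1.37% and 2.81% with limma, 0.961% with 48 libraries, 27.5% without a fold threshold and 2.75% to 6.44% without 1 library (lowest without *Stat5a* KI replicate 2, highest without *Stat5a* line WT replicate 3). With 47 libraries the share at 48 hr, 5.67%, became 3.51%, and the line-corrected share became 2.65%. Between the KI strains at 24 hr the fit of 47 libraries gave 2.58% higher and 0.681% lower. With the replicate number as a block, 523 genes (3.75%) were higher and 0.739% lower, 0 were called between the WT groups and 510 (3.66%) were line-corrected calls, or 440 (3.16%) with blocks within each line. Correlations of the same-numbered KI libraries were 0.101, 0.114 and 0.000439, against -0.114 to 0.0108 for KI libraries of different numbers. Replicates 1 and 2 thus gave the highest values and replicate 3 did not, and the numbers were not taken to pair the strains. Under these settings 42 of the 64 named genes kept their side of the adjusted p threshold, and none that passed reversed. *Socs2*, *Ccl1*, *Cd8b1* and *2010002M12Rik* lost it under several settings, and *Tcf7* and *Il2ra* gained it under some. The causes were not tested. Depth limits genes under 1 CPM, since a count of 3 is 0.0613 to 0.0863 CPM.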

Other observations

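*Baiap2l1*, an adaptor of the actin cytoskeleton, was the largest fall called between the KI strains at 24 hr (log2 difference -7.24, edgeR adjusted p = 0.0015), and it rested on 2 libraries. It was at 65.9 and 43.8 CPM in *Stat5a* KI replicates 2 and 3, at 0.0723 CPM in *Stat5a* KI replicate 1 and at no more than 0.467 CPM in the other libraries of 24 hr. The same replicate numbers carried it at every time. *Stat5a* KI replicate 2 had 1781 reads at 0 hr, 2401 at 4 hr, 2725 at 24 hr and 2628 at 48 hr, and replicate 3 had 1197, 55, 1670 and 1693, while the other 40 libraries of the series had at most 36 reads each. At 4 hr replicate 3 held only 1028515 reads on the longest transcripts, against 49577358 for replicate 2. The gene was singled out after its values were seen. It did not pass the line-corrected test (adjusted p = 0.33).

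All 12 libraries of 24 hr had 42907 to 70162 reads of *Xist* and at most 6 reads of any of the Y-linked genes *Ddx3y*, *Eif2s3y*, *Kdm5d* and *Uty*, so the KI strains did not differ in these sex-linked transcripts.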
